A study of Mus musculus with 12 samples.

Results

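The genes described here are 10 genes of cytokinesis, the step that separates the daughter cells after mitosis, measured in mouse livers and liver tumors. They were taken by name, as the rows of a count table of 26301 genes whose identifiers belong to Anln, Ect2, Racgap1, Prc1, Kif4, Kif20a, Kif20b, Kif23, Cit and Aurkb, and all 10 were present. All 10 also passed the filter on low counts, which left 13882 genes for testing. The 12 libraries came from mice that, per the study's methods, had been bred into the FVB strain. Of these, 4 were livers of adult wild-type mice (control). Another 4 were spontaneous liver tumors of Alb-Cre mice with E2f7 and E2f8 knocked out (labelled DKO). The last 4 were spontaneous liver tumors of Alb-Cre mice with Rb1, E2f7 and E2f8 knocked out (labelled TKO). The study collected tumors at the end of life. Its sequencing methods give no age for the control livers. The controls of its tissue staining were Cre-negative littermates examined at the same time point. Alb-Cre uses the albumin promoter and therefore acts in hepatocytes, and both tumor genotypes lack E2f7 and E2f8 there. Whole pieces of tissue were used, and the control livers were not tumor tissue, so that genotype and tumor state cannot be told apart in any comparison with the controls.

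Hepatocytes are unusual in that many of them enter mitosis and then fail to divide, which leaves binucleate and polyploid cells. Division fails or succeeds at the cleavage furrow and the central spindle, where a bundle of antiparallel microtubules positions an actomyosin ring that pinches the cell. E2F7 and E2F8 are atypical E2F repressors that are known to act on cell cycle genes in these cells, and RB, the product of Rb1, is the pocket protein that restrains the activating E2Fs.

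Many genes that peak late in the cell cycle carry a CHR element, a short promoter motif close to the transcription start that is bound by the DREAM and MMB complexes, often next to a CCAAT box for the factor NF-Y. RefSeq promoter windows (GRCm38.p6, 250 bases before to 50 bases after each start) were held for 8 of the 10 genes, the exceptions being Kif20a and Aurkb. The CHR letters TTTGAA, searched on both strands, were found in 7 of the 8, against 20.2% of the 27025 genes with a window. In all 7 a match lay within 50 bases of an annotated start, where 5.72% of genes have one, a narrower range that was chosen after the matches were seen. The 30 bases around a match near a start are given 5′ to 3′ on the strand of the gene, with the CHR letters in capitals, because this is the sequence feature that most of these genes share and that the choice of genes did not use.
Ect2 (chr3:27153822-27153851, minus strand): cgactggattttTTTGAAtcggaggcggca
Anln (chr9:22389161-22389190, minus strand): tgaaattcaaatTTTGAAcggccgtggtag
Racgap1 (chr15:99651634-99651663, minus strand): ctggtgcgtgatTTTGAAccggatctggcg
Kif23 (chr9:61946780-61946809, minus strand): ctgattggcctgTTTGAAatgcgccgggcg
Prc1 (chr7:80294434-80294463, plus strand): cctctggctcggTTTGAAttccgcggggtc
Kif4 (chrX:100626072-100626101, plus strand): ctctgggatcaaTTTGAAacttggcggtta
Kif20b (chr19:34922353-34922382, plus strand): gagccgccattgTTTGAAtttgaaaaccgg

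Counting the first transcribed base as 1, the match began at base 3 in Kif23, 6 in Racgap1, 8 in Kif20b, 20 in Kif4, 29 in Anln and 16 from the nearer of 2 annotated starts in Ect2, and 5 bases before the nearer of 2 starts in Prc1. Anln carried a further copy on the other strand at base 22, Kif20b a further copy directly after the printed one at base 14, and Ect2 another copy 138 bases before the same start. CCAAT was present in 5 of the 8 windows (Ect2, Racgap1, Kif23, Prc1 and Kif4) and in 41.1% of all genes. The variant CTTGAA was found in Kif20b alone, against 14.8% of genes, the E2F motif TTGGCGC in Ect2 alone, overlapping one of its CCAAT boxes, against 2.85%, and the E2F motif TTCCCGC in none of the 8, against 5.29%. Cit was the gene with a window that held no TTTGAA. These matches are letters in a window, not measured binding.

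The libraries held between 9165812 and 16424973 counts, of which albumin alone took 4.82% to 22.7%. Levels are given as CPM, counts scaled to library size with edgeR's TMM factors. Rb1 measured 6.52 to 10.7 CPM in control, 7.99 to 11.3 CPM in DKO and 3.21 to 5.47 CPM in TKO libraries, so that each TKO library was below each other library. E2f7 averaged 0.812, 1.15 and 0.803 CPM and E2f8 6.24, 20.5 and 26.1 CPM in the same order, but counts over whole genes include exons outside the deleted parts and so do not check these deletions. Among the genes of 9 marker lists for liver and blood cells, edgeR called 1 against controls, the erythroid factor Klf1, which fell by 2.08 on the log2 scale in DKO tumors (adjusted p = 0.0486), a call that failed when any one of 8 libraries was left out (controls 2, 3 and 4, DKO 1, 2 and 4, TKO 1 and 2). The hepatocyte markers summed to 93839 to 151410 CPM in control, 133294 to 326524 in DKO and 63366 to 244458 in TKO libraries. Albumin made up most of these sums (on average 177107 of 208746 CPM in DKO tumors). The mean log2 CPM of the same 9 genes averaged 11.92 in control, 11.75 in DKO and 11.62 in TKO libraries. edgeR called 0 of the 9 against control in either genotype. At an unadjusted p under 0.05, 2 were lower in DKO and 1 in TKO tumors (1545 and 879 of 13882 tested genes). DESeq2 called 1 lower in each (684 and 213 of those 13882 genes). Of the 6 endothelial markers DESeq2 called 2 higher in DKO tumors (5.70% of its tested genes). These were Pecam1 (log2 1.24, DESeq2 adjusted p = 0.0130, edgeR adjusted p = 0.0693) and Lyve1 (log2 2.18, DESeq2 adjusted p = 0.0315, edgeR adjusted p = 0.119). Pecam1 measured 69.5 CPM in DKO 4 and 21.8 to 30.1 CPM in the other DKO tumors. Lyve1 measured 28.6 CPM in DKO 3 and 0.943 CPM, below every control, in DKO 4. Of the 6, 4 had higher means in DKO tumors, and Stab2 (29.4 CPM in control, 22.0 in DKO) and Clec4g (37.3 and 21.2) lower ones. In DKO 1 to 4 the mean log2 CPM of the 10 cytokinesis genes was 1.82, 2.52, 1.72 and 1.12. That of the 6 endothelial markers was 4.21, 4.40, 5.04 and 3.65 in the same order. The part of these markers in the values of the cytokinesis genes was not tested. In bulk tissue, more cells of a type and more RNA per cell cannot be told apart. The p-values measure the spread between 4 samples per group, which the study's methods describe as 4 livers per condition.

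At the cleavage furrow, Ect2 and Anln lay above all control livers in every DKO tumor and Cit did not. Ect2, the exchange factor that activates RhoA at the furrow (chr3:26996144-27052800 in the mm9 build, as for all gene positions that follow, minus strand), measured 2.89, 2.58, 2.37 and 5.27 CPM in control replicates 1 to 4. It measured 7.21, 22.3, 7.81 and 6.13 CPM in DKO and 9.77, 3.20, 2.07 and 6.27 CPM in TKO tumors. All 4 DKO tumors were above every control liver, with DKO 2 far above the rest, whereas TKO 2 lay among the controls and TKO 3 below them. The log2 fold change from control was 1.71 (SE 0.53, 95% interval 0.56 to 2.87, adjusted p = 0.0865, edgeR's quasi-likelihood test) in DKO and 0.70 (SE 0.53, -0.45 to 1.85, adjusted p = 0.550) in TKO tumors, and neither passed the threshold of 0.05.

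Anln encodes anillin, the scaffold that ties actin, myosin and septins to the furrow membrane (chr9:22135658-22193650, minus strand). Its 4 control values were 1.19, 1.97, 0.474 and 1.83 CPM. The DKO values were 4.06, 7.91, 3.73 and 2.00 CPM, and the TKO values were 3.20, 2.84, 1.84 and 3.58 CPM. DKO 4 exceeded the highest control by little, and TKO 3 fell within the control range. The log2 fold changes were 1.71 (SE 0.47, adjusted p = 0.0696) in DKO and 1.09 (SE 0.47, adjusted p = 0.278) in TKO tumors.

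Cit encodes citron kinase, which stabilises the midbody late in cytokinesis (chr5:116295287-116458956, plus strand). It was the least abundant of the 10 genes per length of exon, with 4 to 22 counts in any library. The values were 0.445, 0.984, 0.542 and 0.659 CPM in control, 0.383, 0.870, 1.30 and 0.354 CPM in DKO and 0.543, 0.284, 0.767 and 0.746 CPM in TKO libraries. The groups overlapped throughout, and the log2 fold changes were 0.19 (95% interval -0.87 to 1.24, adjusted p = 0.845) in DKO and -0.14 (-1.22 to 0.95, adjusted p = 0.926) in TKO tumors. The upper bound in DKO tumors is as large as the change measured for Racgap1 and below that of Prc1. Its sign turned in DKO tumors without DKO 3 (-0.27), and in TKO tumors without control 2 (0.08), without TKO 2 (0.09) or with total counts as the scaling (0.05).

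The centralspindlin complex joins the kinesin Kif23 (MKLP1) to the GTPase-activating protein Racgap1, bundles the central spindle and recruits Ect2. Racgap1 (chr15:99450927-99482087, minus strand) measured 3.63, 2.70, 2.91 and 3.88 CPM in control, 7.74, 12.7, 6.15 and 4.72 CPM in DKO and 7.78, 5.69, 3.22 and 7.53 CPM in TKO libraries. All DKO values and all TKO values but that of TKO 3 were above the controls. This gave Racgap1 log2 fold changes of 1.24 (SE 0.34, adjusted p = 0.0675) in DKO and 0.88 (SE 0.34, adjusted p = 0.234) in TKO tumors.

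Its partner Kif23 (chr9:61765087-61794606, minus strand) was less clear, with 4 to 25 counts per library. The control values were 1.04, 0.492, 0.610 and 1.24 CPM, the DKO values 1.84, 1.90, 1.48 and 0.649 CPM and the TKO values 1.09, 1.78, 0.537 and 1.72 CPM. The range of the controls took in DKO 4, TKO 1 and TKO 3. The log2 fold changes of 0.75 (SE 0.46, adjusted p = 0.345) in DKO and 0.57 (SE 0.47, adjusted p = 0.584) in TKO tumors did not pass the test.

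Among the proteins of the spindle midzone, Prc1 and the kinesins Kif4 and Kif20a had the largest differences of the 10 genes besides Aurkb. Prc1, the microtubule bundler that builds the midzone (chr7:87439336-87461145, plus strand), was the only gene of the 10 that passed edgeR's test in DKO tumors. Its values were 1.93, 1.23, 1.83 and 1.68 CPM in control, 8.28, 13.6, 5.74 and 4.66 CPM in DKO and 7.90, 3.34, 1.92 and 5.15 CPM in TKO libraries. The 4 controls were close together, every DKO tumor stood above them, and TKO 3 was level with the highest of them. Prc1 rose 4.76-fold in DKO tumors (log2 2.25, SE 0.44, 95% interval 1.28 to 3.22, adjusted p = 0.0424), and was 2.72 times the control in TKO tumors (log2 1.44, SE 0.44, adjusted p = 0.162). The call in DKO tumors was lost without any single control, and without DKO 1, DKO 2 or DKO 4, with log2 fold changes of 1.88 to 2.44 over all 12 left-out libraries. It was also lost with a term for the letter in the sample descriptions (log2 2.37, adjusted p = 0.164), which was added after the data were seen.

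Kif4, a kinesin that works with Prc1 to limit the length of midzone microtubules (chrX:97821076-97922553, plus strand), measured 0.297, 0.369, 0.474 and 1.17 CPM in control, 3.22, 4.11, 2.31 and 1.24 CPM in DKO and 3.26, 1.85, 0.614 and 1.49 CPM in TKO libraries. DKO 4 was barely above control 4, and TKO 3 was within the controls. For Kif4 the log2 fold changes were 2.18 (SE 0.58, adjusted p = 0.0626) in DKO and 1.61 (SE 0.58, adjusted p = 0.206) in TKO tumors, and 2.79 and 2.22 without control 4. Of its exon bases, 832 are shared with Pdzd11 on the opposite strand, and the strand setting of the counting is not given in the sources used here. Pdzd11 itself had log2 fold changes of 0.14 in DKO and 0.17 in TKO tumors, neither called.

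Kif20a (MKLP2), which carries the Aurora B complex from chromosomes to the midzone, was the member with the most even values among DKO tumors. It measured 1.63, 0.738, 2.17 and 1.39 CPM in control, 5.52, 6.80, 4.73 and 4.13 CPM in DKO and 6.03, 5.26, 1.46 and 8.28 CPM in TKO libraries. TKO 4 held the highest value of all, and TKO 3 again lay within the controls. The log2 fold changes were 1.80 (SE 0.45, adjusted p = 0.0556) in DKO and 1.79 (SE 0.45, adjusted p = 0.132) in TKO tumors, and without TKO 3 Kif20a passed the test in both (log2 1.80, adjusted p = 0.0188, and log2 2.10, adjusted p = 0.0180). It shares 1259 exon bases with Cdc23 on the opposite strand, whose log2 fold changes were 0.08 and 0.33, neither called.

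Kif20b, a plus-end kinesin needed to complete abscission (chr19:34996848-35050221, plus strand), had 3 to 38 counts per library. It measured 0.742, 0.369, 0.678 and 1.24 CPM in control, 1.53, 3.01, 1.77 and 1.53 CPM in DKO and 1.81, 0.426, 0.307 and 1.79 CPM in TKO libraries. The DKO tumors were all above the controls, while TKO 1 and TKO 4 were above them, TKO 2 was next to the lowest control and TKO 3 was below it. The log2 fold changes were 1.32 (SE 0.56, adjusted p = 0.171) in DKO and 0.49 (SE 0.57, adjusted p = 0.724) in TKO tumors.

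Aurkb encodes Aurora B, the kinase of the chromosomal passenger complex that governs the central spindle and the timing of abscission (chr11:68859149-68865166, plus strand). Its values were 0.964, 0.492, 0.881 and 1.03 CPM in control, 4.29, 6.25, 2.25 and 1.71 CPM in DKO and 3.98, 2.27, 0.920 and 2.69 CPM in TKO libraries. All DKO tumors and all TKO tumors other than TKO 3 were above the controls. Against control, the log2 fold changes of Aurkb were 2.06 (SE 0.50, adjusted p = 0.0521) in DKO and 1.52 (SE 0.50, adjusted p = 0.183) in TKO tumors.

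**Figure D1:**
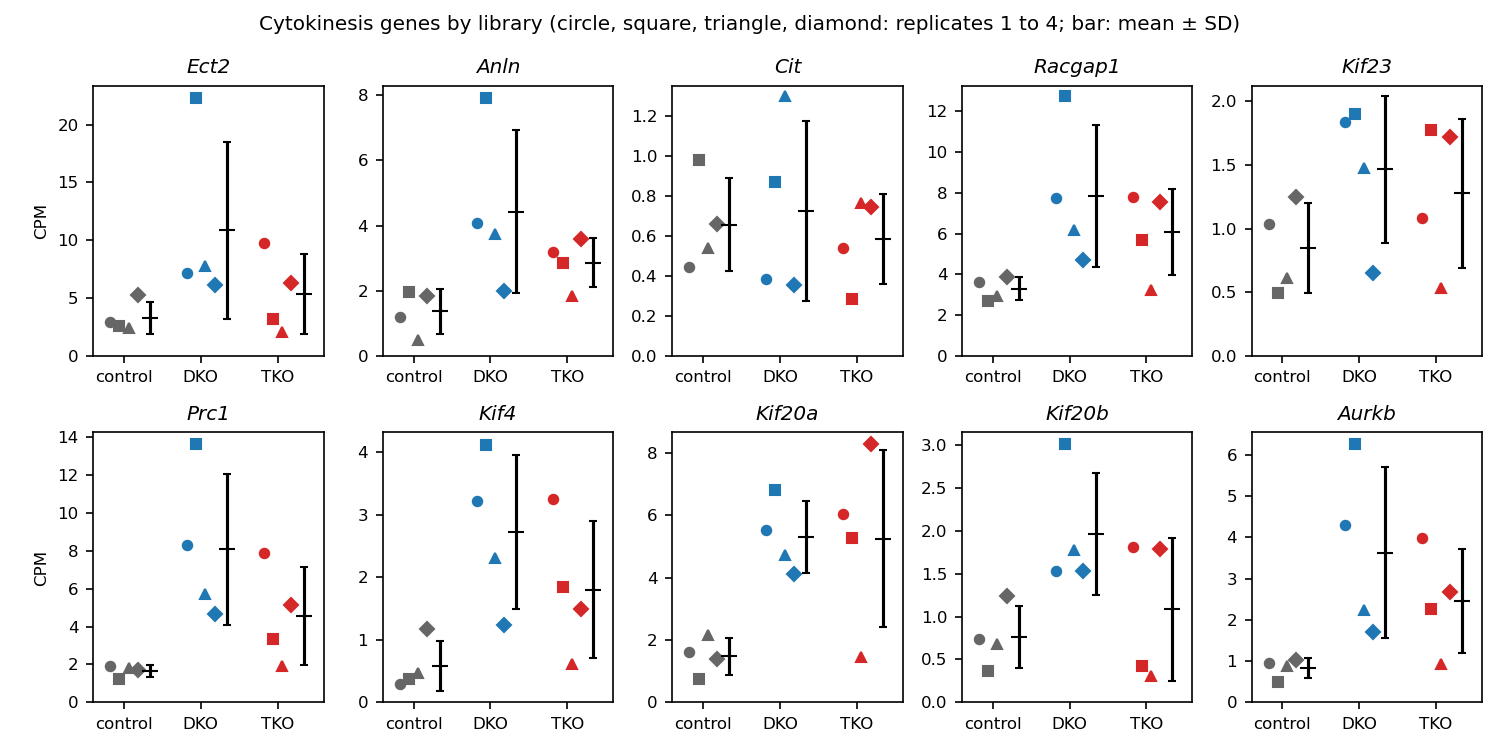
CPM (vertical axis, from 0, a separate scale for each gene) of the 10 cytokinesis genes in the 12 libraries, with marker shapes for replicates 1 to 4 and a bar for the mean ± SD of each group. In 8 of the panels every DKO library lies above every control library, whereas TKO replicate 3 (red triangle) exceeds the highest control in 0 of 10.

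Over all 10 genes, DKO tumors held more RNA of most cytokinesis genes than control livers. Each of the 10 had a log2 fold change above 0 in DKO tumors (51.6% of all tested genes did), Cit except without DKO 3, and in 8 of 10 the 4 tumors lay above the 4 livers without overlap (8.87% of tested genes). The same 8 had an unadjusted p under 0.05 (12.9% of tested genes, in that direction). After adjustment over all genes edgeR called 1 of 10 (1.41% of tested genes were called higher), and DESeq2 called 7 of 10 (5.70%), leaving Kif20b, Kif23 and Cit uncalled. The median log2 fold change of the 10 genes was 1.71, against 0.02 over all tested genes. With the 8 libraries of this comparison fitted alone, edgeR called 4 of the 9 genes that passed the filter (Prc1, Kif4, Kif20a and Aurkb), and leaving out TKO 3, which is no part of the contrast but shares its estimate of the spread, gave 5 (those 4 and Racgap1). A covariate from sex-linked genes gave 0, with a log2 fold change of 2.11 for Prc1 (adjusted p = 0.0527), but all 12 libraries held many Y-linked counts (1093 to 2293) and few of Xist (1 to 6), so that a difference in sex was not seen.

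In TKO tumors most of the same genes had higher means than in the same 4 control livers, but with 1 tumor at the control level. Of the 10 genes, 6 (Anln, Racgap1, Prc1, Kif4, Kif20a and Aurkb) had 3 of 4 tumors above the highest control, and 0 had all 4 (4.38% of tested genes did). The share of tested genes with 3 of 4 was not counted, so the 6 cannot be set against it. edgeR called 0 of 10 (0.0504% of tested genes called higher), 6 of 10 had an unadjusted p under 0.05 (9.94%), and DESeq2 called Kif20a alone (adjusted p = 0.0109; 2.00% of its tested genes). The median log2 fold change was 0.99, against 0.02 over all tested genes, which total counts as the scaling moved by 0.15. Since both tumor genotypes were set against the same control livers, their values are given side by side and are not independent of each other.

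When the tumor genotypes were averaged, Prc1 (log2 1.85, SE 0.41, adjusted p = 0.0444) and Kif20a (log2 1.80, SE 0.41, adjusted p = 0.0454) rose against control livers, 2 of 10 genes against 1.25% of tested genes called higher. For the same 6 genes as above, 7 of 8 tumors were above the highest control, a count whose share among tested genes was not taken. No gene of the 10 had all 8 tumors above the controls, as 2.20% of tested genes did, and 7 were higher at an unadjusted p under 0.05 (12.8%). DESeq2 called 6 of 10 (5.43%), and edgeR called 5 without TKO 3 (Racgap1, Prc1, Kif4, Kif20a and Aurkb), Prc1 alone without DKO 3, and 0 without any one of the other 10 libraries.

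The direct comparison of the tumor genotypes asks what the added knockout of Rb1 goes with. All 10 log2 fold changes of TKO against DKO tumors were below 0 (51.2% of tested genes were above 0), with a median of -0.56 against 0.01 over all tested genes, although that of Kif20a was above 0 with total counts as the scaling (0.15) or the sex-linked covariate (0.01). None could be told from 0. edgeR called 0 of 10 and DESeq2 0 of 10 (0.227% of its tested genes were called lower), 0 of 10 had an unadjusted p under 0.05 (3.84% of tested genes, lower), and edgeR called 0% of all tested genes in this comparison. The lowest value was that of Ect2, with a 95% interval from -2.14 to 0.10 around -1.02, and for Prc1 the interval ran from -1.71 to 0.09 around -0.81. At the other end, Kif20a had a log2 fold change of -0.01 (-0.92 to 0.91) and Kif23 of -0.19 (-1.16 to 0.79), and both were above 0 without TKO 3 (0.30 and 0.06). The signs of Racgap1 (0.08), Kif20a (0.51), Kif23 (0.18) and Aurkb (0.13) also turned in a fit with a term for the letter in the sample descriptions. These intervals do not show that the genotypes are alike, since their lower bounds run from -2.14 for Ect2 to -0.92 for Kif20a.

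**Figure D2:**
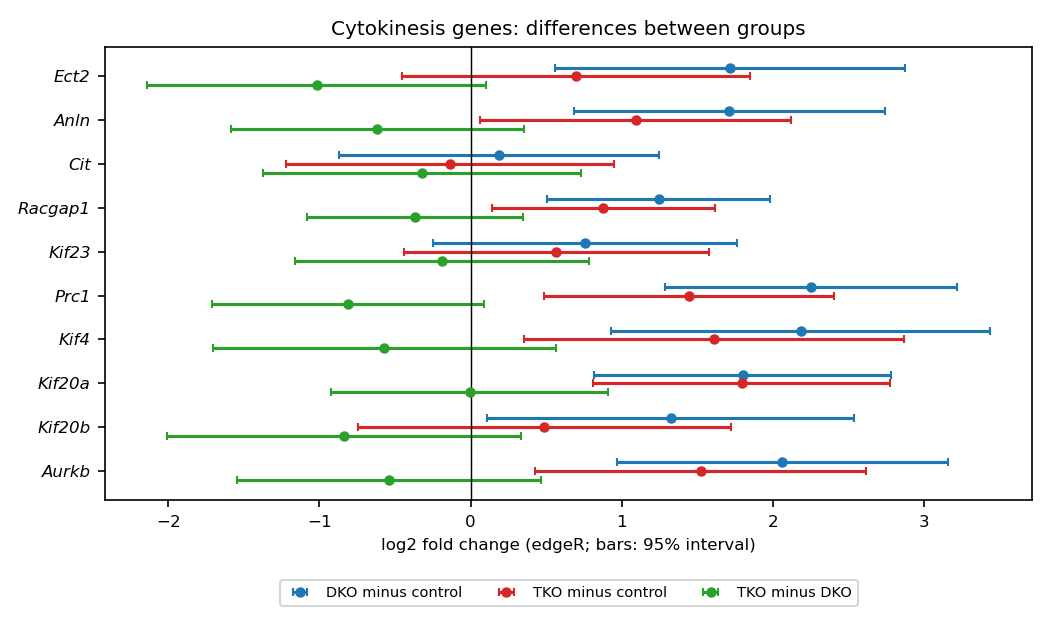
Log2 fold changes (horizontal axis) of the 10 genes in DKO minus control, TKO minus control and TKO minus DKO, with 95% intervals from edgeR as bars. The interval lies above 0 for 8 genes in DKO and 6 genes in TKO tumors against control, and takes in 0 for all 10 genes between the tumor genotypes.

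All of the 10 genes but Cit moved together from library to library. Their mean log2 CPM was 0.40 ± 0.30 (SD, n = 4) in control livers, 1.79 ± 0.58 in DKO and 1.25 ± 0.67 in TKO tumors. By library it ranged from 0.13 to 0.82 in control, from 1.12 to 2.52 in DKO and from 0.35 to 1.82 in TKO libraries, so that every DKO tumor was above every control liver and TKO 3 was not. DKO 2 held the highest value for 8 of the 10 genes, and control 2 the lowest for 5. TKO 1, TKO 2 and TKO 4 exceeded the highest control in 8, 7 and 9 of the 10 genes, and TKO 3 in 0. TKO 3 also had the highest level of the endothelial markers, summed to 286 CPM against 112 to 173 in control, 138 to 199 in DKO and 152 to 171 in the other TKO libraries. Its macrophage markers summed to 552 CPM, the highest too, but their mean log2 CPM was 5.50 there and 5.51 in control 1. Of the 7 macrophage and 6 endothelial markers, edgeR called 0 in TKO tumors against control, 1 macrophage marker was lower and 1 endothelial marker higher at an unadjusted p under 0.05, and DESeq2 called 0. None of them was at 0 in all libraries of a group, and their part in the low cytokinesis values of TKO 3 was not tested. Without TKO 3 the difference of the means from control was 1.14 in TKO tumors, against 0.84 with it. The sample descriptions also carry letters of unstated meaning, of which 3 are shared by 8 libraries. Within them, all 10 genes were higher in DKO 2 than in control 1, 9 and 10 in TKO 1 than in controls 2 and 3, all 10 in DKO 3 and in TKO 4 than in control 4, and 5 in TKO 4 than in DKO 3. The counts for single libraries in this paragraph are given without the share of all tested genes. Genes that moved together are not separate observations.

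As a description over the 12 libraries, which share these groups and the same depth range, the log2 CPM of Racgap1 followed the mean of the other 9 genes most closely (Pearson r = 0.983), with Aurkb (0.955), Prc1 (0.955), Kif4 (0.926) and Ect2 (0.918) next. Kif20a (0.840), Anln (0.832), Kif20b (0.823) and Kif23 (0.756) followed it less closely, and Cit did not follow it (0.021). Within groups, after the group means were removed, r was 0.971 for Racgap1 and 0.041 for Cit. It was 0.718 for Kif23, 0.685 for Kif20a and 0.620 for Anln, and from 0.821 to 0.916 for the remaining genes. Among 13872 other tested genes, those most like the mean of the 10 were Kntc1 (r = 0.981), Ccna2 (0.975), Top2a (0.966), Ckap2 (0.964), Cdk1 (0.964), Espl1 (0.964), Rrm2 (0.963), Fancd2 (0.963), Uhrf1 (0.960) and Bub1b (0.960). In all, 320 genes had an r above 0.8, and the median r over all 13872 was 0.01. Kntc1 is a kinetochore protein, Ccna2 and Cdk1 a cyclin and its kinase, Top2a and Espl1 are needed for chromosome separation, Ckap2 is a spindle protein and Bub1b a spindle checkpoint kinase. Rrm2 makes deoxynucleotides for replication, Fancd2 acts in the repair of DNA crosslinks and Uhrf1 maintains DNA methylation at replication.

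Per kilobase of exon, the order of the levels was led by Ect2 in control livers (0.702 CPM per kb), before Racgap1 (0.463), Kif20a (0.381), Aurkb (0.285), Anln (0.252), Kif23 (0.216), Prc1 (0.203), Kif20b (0.136), Kif4 (0.105) and Cit (0.043). In DKO tumors it ran from Ect2 (2.33 CPM per kb), Kif20a (1.36), Aurkb (1.23), Racgap1 (1.11) and Prc1 (0.981) to Anln (0.816), Kif4 (0.493), Kif23 (0.374), Kif20b (0.352) and Cit (0.047). In TKO tumors Kif20a (1.35 CPM per kb) stood before Ect2 (1.14), Racgap1 (0.854), Aurkb (0.837), Prc1 (0.556), Anln (0.529), Kif4 (0.327), Kif23 (0.326), Kif20b (0.195) and Cit (0.038). Neighbours in these orders differed by less than the sum of their SDs in every case except Kif20b and Cit in DKO tumors.

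The other genes of cytokinesis were read from a list of 34 genes, all tested, in 3 roles, namely 5 partners of the central spindle, 17 genes of the contractile ring and 12 genes of abscission. In DKO tumors 4 of the 34 rose and 0 fell, against 1.41% and 1.01% of tested genes, and 14 were higher at an unadjusted p under 0.05 (12.9% of tested genes) and 0 lower. These 4 calls (Incenp, Plk1, Myh10 and Septin11) each failed without any one of controls 2, 3 and 4, DKO 1, DKO 2 and DKO 4, those of Incenp and Plk1 also without control 1, that of Plk1 without TKO 1 or TKO 2 and that of Septin11 without TKO 1. In TKO tumors edgeR called 0 of 34 (0.0504% of tested genes), 10 were higher at an unadjusted p under 0.05 (9.94%), and DESeq2 called 2 (2.00%). Over both genotypes 3 of 34 rose (Incenp, Myh10 and Septin11), against 1.25% of tested genes, calls that held without DKO 3 or TKO 3, and for Myh10 and Septin11 without TKO 4, and failed without any other library. Between the genotypes edgeR and DESeq2 called 0 of 34, and 3 had an unadjusted p under 0.05, all lower in TKO tumors (3.84% of tested genes).

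Of the 3 roles, the spindle partners had the highest medians. All 5 had higher means in both tumor genotypes, with a median log2 fold change of 2.21 in DKO and 1.50 in TKO tumors. Incenp, the scaffold on which Aurora B sits, measured 2.30, 1.11, 2.44 and 2.64 CPM in control, 7.21, 9.18, 4.79 and 4.72 CPM in DKO and 4.16, 3.20, 3.53 and 4.63 CPM in TKO libraries, with no overlap between any of the groups. Incenp rose in DKO tumors (log2 1.58, SE 0.30, adjusted p = 0.0376) and over both genotypes (log2 1.22, adjusted p = 0.0444), and in TKO against DKO tumors its log2 fold change was -0.73 (unadjusted p = 0.0259, adjusted p = 0.517). Plk1, the mitotic kinase that readies centralspindlin for Ect2, rose in DKO tumors (log2 2.21, SE 0.50, adjusted p = 0.0469), from 0.271 to 1.39 CPM in control livers to 1.89 to 4.90 CPM, with a log2 fold change of 2.88 without control 4 and 1.92 without DKO 2. Birc5, the passenger complex subunit survivin, and Kif14, a kinesin that binds Prc1 and citron kinase, had log2 fold changes of 2.36 (adjusted p = 0.0529) and 2.34 (adjusted p = 0.0896) in DKO and 2.08 and 2.05 in TKO tumors. Kif14 had only 0 to 3 counts in control, 7 to 16 in DKO and 1 to 15 in TKO libraries, which limits its precision.

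In the contractile ring 2 of 17 genes rose in DKO tumors (1.41% of tested genes). The median log2 fold change was 0.33 in DKO and 0.46 in TKO tumors. Myh10, a heavy chain of non-muscle myosin II, measured 16.1, 16.2, 13.7 and 16.6 CPM in control, 29.0, 26.8, 38.3 and 29.8 CPM in DKO and 29.0, 23.2, 17.2 and 29.0 CPM in TKO libraries. All 8 tumors were above all controls, and Myh10 rose in DKO tumors (log2 0.98, SE 0.18, adjusted p = 0.0352) and over both genotypes (log2 0.82, adjusted p = 0.0405). Septin11, a subunit of septin filaments, behaved likewise, with 14.5 to 25.1 CPM in control, 34.7 to 45.5 CPM in DKO and 26.5 to 35.2 CPM in TKO libraries (log2 0.98, adjusted p = 0.0425 in DKO; log2 0.84, adjusted p = 0.0436 over both). Both genes are also used outside cell division, by many cell types. At the low end, Rock1, a kinase that activates myosin, had a log2 fold change of -0.29 in TKO tumors (adjusted p = 0.349).

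The abscission genes, most of them subunits of the ESCRT machinery that cuts the midbody, had a median log2 fold change of 0.03 in DKO and -0.08 in TKO tumors. edgeR called 0 of 12 in either. An unadjusted p under 0.05 was reached by 2 and 1, all higher, near the shares of all tested genes (12.9% and 9.94%, higher). DESeq2 called 2 and 0 (5.70% and 2.00% of its tested genes). The 2 genes with higher values were Cep55, which brings ESCRT to the midbody (log2 1.89 in DKO, adjusted p = 0.0857, and 1.16 in TKO), and Chmp4c, the ESCRT subunit of the abscission checkpoint (log2 1.65, adjusted p = 0.0746, and 1.11). Tsg101, Chmp1b and Ist1 were the lowest in DKO tumors, with log2 fold changes of -0.21, -0.21 and -0.19.

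**Figure D3:**
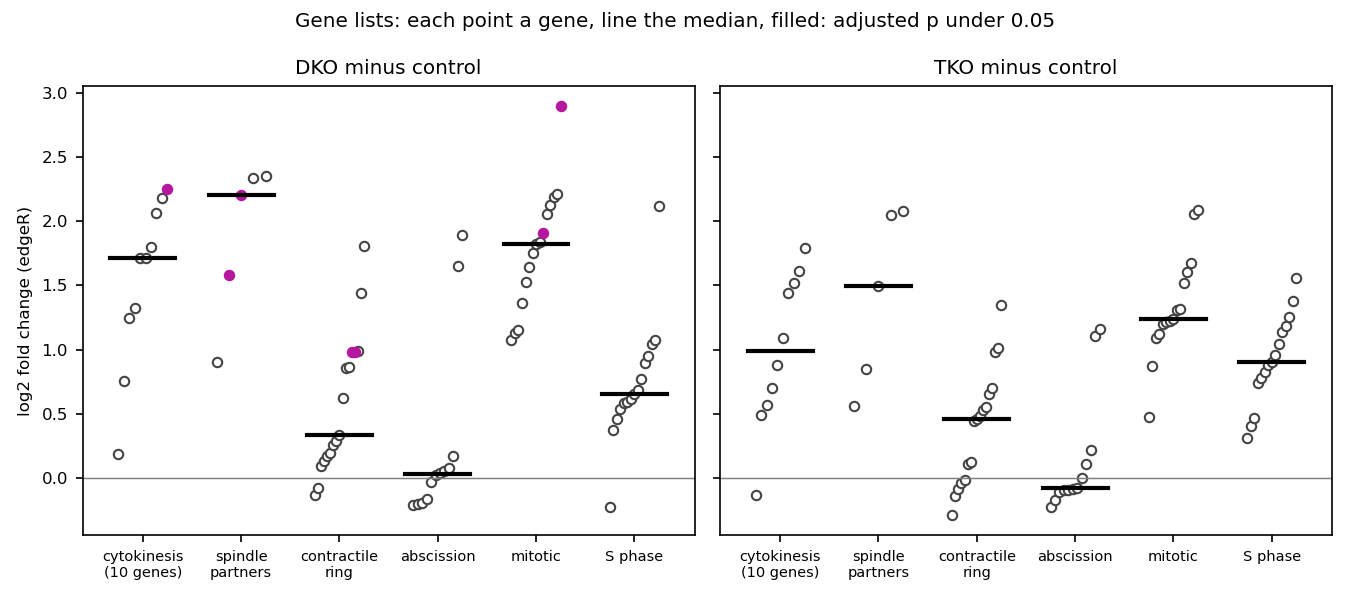
Log2 fold changes (vertical axis) against control livers of the 10 cytokinesis genes, the other cytokinesis genes in 3 roles, and mitotic and S phase genes, in DKO (left) and TKO tumors (right). Each point is a gene, the line is the median and filled points passed edgeR's test. The median of the 10 genes (1.71) is nearest to that of the mitotic genes (1.83) in DKO and, at 0.99, to that of the S phase genes (0.91) in TKO tumors, and the abscission genes lie near 0.

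To set cytokinesis beside the rest of the cell cycle, 15 mitotic and 15 S phase genes were read. In DKO tumors edgeR called 2 of the 15 mitotic genes (1.41% of tested genes were called higher). These were Mki67, the Ki-67 antigen (log2 2.89, adjusted p = 0.0425), and Bub1b (log2 1.91, adjusted p = 0.0459). Of the 15, 13 had an unadjusted p under 0.05 (12.9% of tested genes, higher). The median log2 fold change was 1.83, that of Ccnb1, the cyclin of mitotic entry. Both calls held without DKO 3, TKO 2, TKO 3 or TKO 4 and failed without any one of the other 8 libraries, and Mki67 had a log2 fold change of 2.26 without DKO 2. In TKO tumors edgeR called 0 of 15, 11 had an unadjusted p under 0.05 (9.94% of tested genes, higher), DESeq2 called 2 (2.00%), and the median was 1.24. Of the S phase genes edgeR called 0 of 15 in either genotype. In DKO tumors 2 of the 15 had an unadjusted p under 0.05 and DESeq2 called 1, shares near those of all tested genes (12.9% and 5.70%, higher), and the median log2 fold change was 0.65, from -0.23 for the replication helicase subunit Gins1 to 2.12 for Rrm2, a subunit of ribonucleotide reductase. In TKO tumors 8 of the 15 had an unadjusted p under 0.05 (9.94%), DESeq2 called 0 (2.00%), and the median was 0.91.

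Per library, the mean log2 CPM of the 10 cytokinesis genes kept close to that of the mitotic genes, with a difference of 0.23 ± 0.24 (SD, n = 4) in control, 0.02 ± 0.20 in DKO and -0.08 ± 0.17 in TKO libraries. Against the S phase genes the groups parted. The mean of the 10 genes minus that of the S phase genes was -2.38, -2.16, -2.31 and -2.80 in control livers, -1.42, -1.93, -1.93 and -1.72 in DKO tumors and -2.75, -2.42, -2.64 and -2.14 in TKO tumors. All 4 DKO tumors were above every control liver and every TKO tumor, which overlapped each other. This difference was chosen after the data were seen and is given without a test. It differed by -0.73 between TKO and DKO tumors and by between -0.85 and -0.63 with any library left out. The mitotic genes minus the S phase genes gave group means of -2.64, -1.77 and -2.40, with DKO 3 and TKO 4 level at -2.19.

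**Figure D4:**
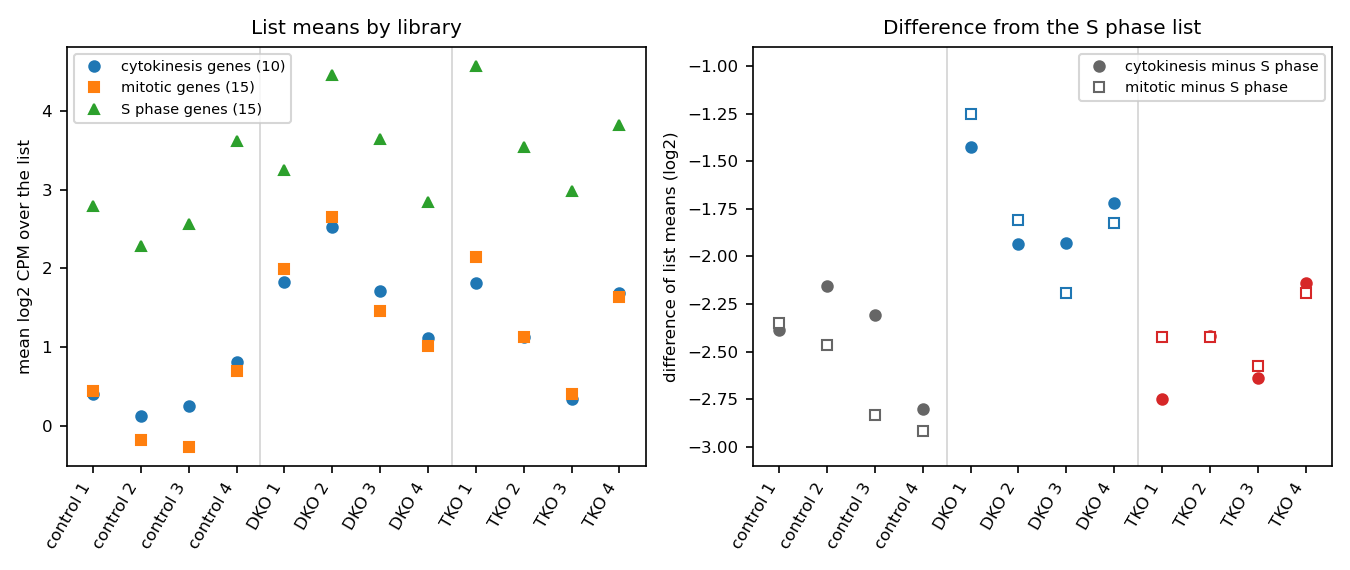
Left, mean log2 CPM (vertical axis) of the 10 cytokinesis, 15 mitotic and 15 S phase genes in each of the 12 libraries. Right, the cytokinesis mean (filled) and the mitotic mean (open) minus the S phase mean in the same libraries, where the 4 DKO libraries (-1.93 to -1.42, filled) lie above the controls and the TKO libraries.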

How the data were processed

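Poly(A) RNA of the 12 samples was sequenced on a SOLiD instrument. Alignment to mm9 (BWA) and gene counting (featureCounts) were done by the authors, who deposited raw counts for 26301 Entrez genes. Tool versions and how strand and multiply mapped reads were handled are not given in the sources used here. Groups came from the sample labels. Of the identifiers, 24191 had a symbol, and these took 99.4% of the counts. Depth was 9165812 to 16424973 counts per library. Low counts limit the precision of several genes. Kif20b had 3 to 38 counts per library, and the control libraries held 3 to 16 counts of Kif4 and 4 to 14 of Aurkb.

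All genes were fitted together with edgeR 4.0.16 (R 4.3.3): TMM scaling, filterByExpr (13882 genes), a mean for each group over all 12 libraries, and its quasi-likelihood test, with p-values adjusted by Benjamini-Hochberg over all tested genes and called under 0.05. SEs are the log2 fold change over the root of F. Log2 CPM used a prior count of 2. The script was tested on simulated counts. Alternatives were DESeq2 1.42.0, its size factors, total counts, other filters, the compared libraries alone, a replicate block, a covariate from sex-linked genes and leaving out each library. Same-numbered libraries come from different mice, with correlations of their deviations from -0.17 to 0.37, and were not paired. The letters in the descriptions (7, of which 3 are shared) have no stated meaning, and a block on them, which leaves 3 residual degrees of freedom, was added after seeing the data. No libraries were duplicates. Gene positions are those of GENCODE vM1 (mm9), and promoter sequences are from RefSeq (GRCm38.p6), with no conversion between builds. Named genes were the 10 genes, other cytokinesis genes called or with the 3 highest or lowest changes in a comparison, the highest, median or lowest gene of the mitotic and S phase lists, the 10 genes most like the mean, and the deleted genes as a check. Kif23, Bub1b, Cep55, Chmp4c, Klf1 and the overlapping genes were named beside a count or a list. The genes and lists were chosen with earlier results of these data known.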

Additional observations from a re-analysis of the deposited data

Results flagged for a closer look

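The 39 sets of 4 libraries examined (the 10 genes and 3 list means in 3 groups) are not independent of each other. Of these sets, 2 held a library far from the other 3. Both were DKO 2. Ect2 measured 22.3 CPM there, against 6.13 to 7.81 in the other DKO tumors. Kif20b measured 3.01 CPM there, against 1.53 to 1.77. Without DKO 2 the log2 fold change of DKO tumors from control was 1.10 for Ect2 and 1.05 for Kif20b.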

How the results depend on the processing

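Of the 10 cytokinesis genes, edgeR called 1 in DKO tumors, 0 in TKO tumors, 0 between the genotypes and 2 over both genotypes, and 4, 0, 0 and 3 of the 34 other cytokinesis genes. With DESeq2 these became 7, 1, 0 and 6 of the 10 and 12, 2, 0 and 11 of the 34. Fitting the DKO and control libraries alone gave 4 of 9 and 8 of 33 that passed the filter. Total counts as the scaling gave 1 of the 10 and 0 of the 34 in DKO tumors and 0 and 0 over both genotypes. It moved the median of all genes by 0.15 in TKO tumors and 0.10 over both, and the share of higher among all called genes from 58.3% to 88.1% in DKO tumors and from 50.6% to 83.6% over both. At least 10 counts in every library, which 3 of the 10 reached, gave 2 of 27 others in DKO tumors and 1 of the 10 over both. A covariate from sex-linked genes gave 0 of the 10 and 1 of the 34 in DKO tumors, where Prc1 had an adjusted p = 0.0527, and 1 of the 10 over both. With the replicate number as a block, edgeR called 1 of the 10 in DKO tumors and 1 over both, where Kif20a was lost (adjusted p = 0.0677) and the log2 fold change of Cit became -0.016. A term for the letter in the sample descriptions, added after seeing the data, with 3 residual degrees of freedom, gave 0 of the 10 and 0 of the 34 in DKO tumors (Prc1 log2 2.37, adjusted p = 0.164) and 1 and 1 over both, where Prc1 was called. Between the genotypes it turned Racgap1 (0.084), Kif20a (0.51), Kif23 (0.18), Aurkb (0.13), Septin11 (0.20), Mki67 (0.23) and Klf1 (-0.87), and the correlations of deviations within a letter ran from -0.23 to 0.24. The labels give the replicate number no further meaning, and why calls changed with this block was not tested.

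With each library left out, the calls ranged from 0 to 5 of the 10 and 0 to 7 of the 34 in DKO tumors, 0 to 1 and 0 to 2 in TKO tumors, and 0 to 5 and 0 to 8 over both, always with the highest without TKO 3. Between the genotypes they were 0 throughout. Without control 2 or control 3, no gene of the table was called in DKO tumors. The mean log2 CPM of the 10 genes and its difference from the S phase genes moved by less than 1 SD between replicates in all 4 comparisons under the alternatives run on them (prior count, scaling, medians and left-out libraries).

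Log2 fold changes that turned were all uncalled. For Cit these were 0.045 with total counts in TKO tumors and -0.000883 with the sex-linked covariate over both. With libraries left out, Cit ran from -0.27 to 0.42 in DKO tumors, -0.29 to 0.087 in TKO tumors, -0.56 to 0.14 between the genotypes and -0.20 to 0.24 over both. Between the genotypes Kif20a was 0.15 with total counts and 0.012 with the sex-linked covariate, and ran from -0.31 to 0.30, and Kif23 from -0.44 to 0.063, with libraries left out. The cause was not tested. The alternatives for the S phase difference and for genes outside the 10 were chosen after seeing the data. Low counts (3 to 38 for Kif20b, 4 to 22 for Cit) limit these values.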
